A study of Mus musculus with 45 samples.

Results

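Cytosolic ribosomal proteins are the protein parts of the ribosomes that translate cytoplasmic mRNA. They comprise the large-subunit proteins (Rpl), the small-subunit proteins (Rps and Rpsa) and the acidic stalk proteins Rplp0, Rplp1 and Rplp2, to which elongation factors bind. The mRNAs of most of them begin with a 5′ terminal oligopyrimidine (TOP) tract, through which the growth-controlling kinase complex mTORC1 and the RNA-binding protein Larp1 regulate their translation and stability. In the renewing epithelium of the colon, ribosome supply is known to be tied to growth and division of crypt cells. Many of these genes have also left processed copies scattered through the mouse genome, which matters for how sequencing reads are counted.

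The genes were taken by symbol from a table of RNA-seq read counts of mouse colonic epithelium: all entries named Rpl or Rps with a number, Rplp0 to Rplp2, and Rpsa. They were 84 of 24918 entries, with 48 large-subunit, 33 small-subunit and 3 stalk genes, and the naming rule uses no expression value. Of these, 78 had enough counts to be tested, among 12961 tested entries in all. The remaining 6 were Rpl10l, Rpl26, Rpl30, Rpl34, Rpl39l and Rpl3l. Rpl10l and Rpl26 had 0 counts in all 15 libraries, and the other 4 had at most 12 counts in a library.

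The RNA came from male C57BL/6 mice (C57BL/6J in the study's methods) aged 6 weeks when the diets began, with 5 mice in each of 3 groups. Control mice (LF) ate a diet with 10% fat for 20 weeks. Obese mice (HF) ate a diet with 60% fat for 20 weeks. Formerly obese mice (HF-LF) were fed the 60% fat diet during the first 15 weeks and the 10% fat diet during the last 5 weeks. No genetic alteration was named, and the diet was the only treatment. The epithelium was released with EDTA from the whole colon, so that each library averaged all its cell types and regions. Library totals were 15230391 to 22762095 counts, the highest being 1 HF-LF library. The 10 colon epithelium markers (such as Epcam and Vil1) summed to 14565 to 17434 CPM in every library, against 0.223 to 2.58 CPM for the 5 smooth muscle markers (such as Myh11), 2.28 to 30.1 CPM for the 5 fibroblast markers (such as Col1a1) and 23.9 to 61.9 CPM for the 10 immune markers in the table (such as Ptprc). CPM are counts scaled to a common library size, with library factors from the TMM method.

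The share of all counts that fell on ribosomal protein genes was smaller after either high-fat regimen than in control mice. The 84 genes held 1.34%, 1.32%, 1.25%, 1.33% and 1.32% of the counts in the 5 control libraries. In the obese libraries they held 1.18%, 1.24%, 1.11%, 1.21% and 1.19%. In the formerly obese libraries they held 1.14%, 1.18%, 1.19%, 1.11% and 1.17%. Each of the 10 libraries of mice with a high-fat history lay below all 5 control libraries, whereas the obese and formerly obese libraries overlapped. After TMM scaling the summed level was 13093 ± 550 CPM (SD, n = 5) in LF, 11777 ± 547 in HF and 11705 ± 383 in HF-LF, and the highest obese library (12428 CPM) then lay above the lowest control library (12240 CPM). In libraries of a whole epithelium, less mRNA per cell and fewer cells of a type rich in these mRNAs cannot be told apart.

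**Figure D1:**
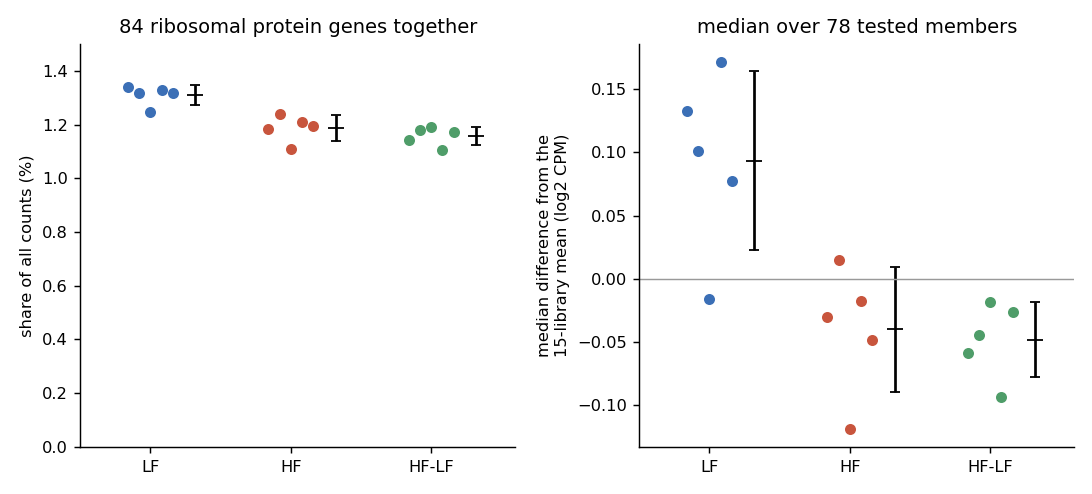
Left, share of all counts (%) held by the 84 ribosomal protein genes in each library of control (LF), obese (HF) and formerly obese (HF-LF) mice. Right, the median over the 78 tested genes of each library's difference from the mean of all 15 libraries, in log2 CPM. Points are mice and black marks are the mean ± SD (n = 5). On the left the LF points lie between 1.25% and 1.34%, above every HF and HF-LF point. On the right the lowest LF point (-0.016) falls within the range of the HF points and just above the highest HF-LF point (-0.018).

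The decrease was small per gene and broad. In obese against control mice the median log2 fold change over the 78 tested genes was -0.13, and 64 of them lay below 0, where 49.9% of all tested entries lay below 0 and the median of all entries was 0.0002. For formerly obese against control mice the median was -0.14, with 66 of 78 below 0 against 50.2% of all entries. Between formerly obese and obese mice the median was -0.01, with 41 of 78 below 0 against 49% of all entries. The first 2 comparisons share the control mice, so that they are not independent of each other. By role, the medians for obese mice were -0.12 over 42 large-subunit genes, -0.18 over 33 small-subunit genes and -0.13 over the 3 stalk genes. For formerly obese mice they were -0.14 for both subunits and -0.29 over the 3 stalk genes.

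Few members passed the study's criteria for a differentially expressed gene, which were a fold change over 1.2, p under 0.01 and adjusted p under 0.25. A total of 3 members passed in obese against control mice by edgeR's quasi-likelihood test, with Rpl23 and Rpl6 lower and Rpl23a higher, against 0.864% of all entries called lower and 0.718% called higher. Formerly obese against control mice gave 5 members, all lower (Rps21, Rplp1, Rps10, Rplp2 and Rps4l), where 1.87% of all entries were called lower and 1.85% higher. The comparison of formerly obese with obese mice gave Rps4l and Rplp1 lower and Rps12 higher, against backgrounds of 1.42% and 1.23%. The fold criterion removed most of the members that passed on p-values. Without it, 16 members were lower and 1 was higher in obese mice, where 1.45% of all entries were lower and 1.09% higher by the same rule. At an unadjusted p under 0.05 by edgeR 29 were lower and 2 higher, against 5.85% and 5.01% of all entries. In formerly obese against control mice 19 were lower and 0 were higher, where 3.42% of all entries were lower and 3.54% higher. At an unadjusted p under 0.05 by edgeR 30 were lower and 0 higher in that comparison, against 8.63% and 8.1% of all entries, and DESeq2 also found 0 higher by the rule without the fold criterion. For formerly obese against obese mice 3 were lower and 1 higher, where 2.7% of all entries were lower and 2.2% higher, and at an unadjusted p under 0.05 the counts were 8 and 4, against 7.05% and 6.3%.

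In obese mice the count changed when single libraries were left out. Without LF replicate 1, LF replicate 2 or HF replicate 3, 0 members met the full criteria, and 4, 1 and 1 passed without the fold criterion, all lower. The share of all entries that passed in these refits is not given here, so this drop cannot be set against that of all entries. The median over the members without any one library ranged from -0.17 to -0.12, with 60 to 67 of 78 genes below 0. In formerly obese against control mice 14 to 21 members were lower without the fold criterion when any one library was left out.

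**Figure D2:**
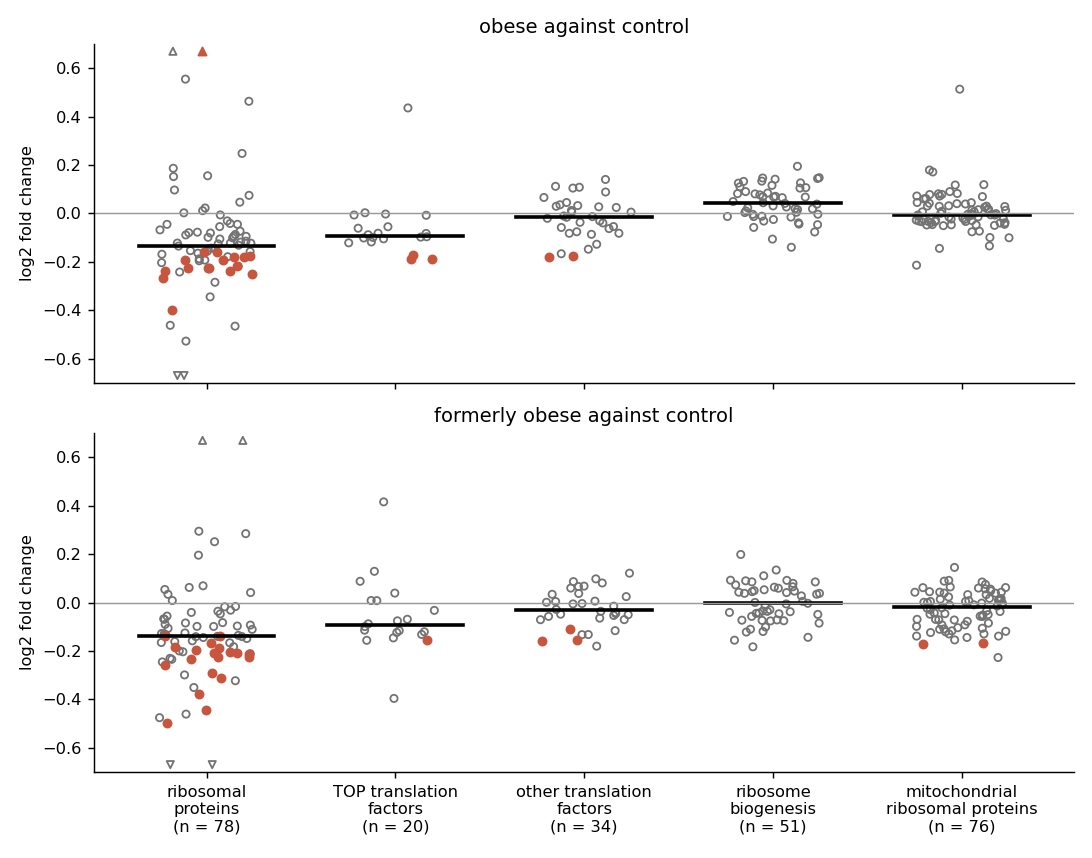
Log2 fold change of each tested gene in 5 gene lists, for obese (top) and formerly obese (bottom) against control mice. Each point is a gene, black bars are list medians, filled red points passed p under 0.01 and adjusted p under 0.25 by edgeR, and triangles at the frame are genes beyond ±0.7. The ribosomal protein median lies at -0.13 and -0.14, the median of TOP translation factors at -0.09 in both panels, and the medians of ribosome biogenesis and mitochondrial ribosomal protein genes between -0.02 and 0.04.

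Rps3, a small-subunit protein at the mRNA entry channel, has no coding copy elsewhere in the genome (criterion given further on) and little scatter. It had 1124, 1105, 1028, 1157 and 1071 CPM in the control mice. Its values were 955, 1013, 910.3, 999.8 and 969.8 CPM in obese mice and 967, 1065, 1013, 944 and 1014 CPM in formerly obese mice. All 5 obese values lay below all 5 control values, while 1 formerly obese value lay above the lowest control value. The log2 fold change was -0.18 ± 0.047 (SE) in obese mice (edgeR adjusted p = 0.157) and -0.13 ± 0.047 in formerly obese mice (adjusted p = 0.155).

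Rpl32, a large-subunit protein, was the member with the smallest p in obese mice. The control mice had 391, 382, 352, 383 and 354 CPM. Obese mice had 307, 327, 295, 323 and 315 CPM and formerly obese mice had 309, 345, 331, 310.2 and 341 CPM. No value of either group reached the lowest control value. The log2 fold changes were -0.25 ± 0.047 (SE, edgeR adjusted p = 0.0468) and -0.19 ± 0.047 (adjusted p = 0.0476), both short of the 1.2-fold criterion. Rpl22, an RNA-binding large-subunit protein, had the next smallest p in obese mice. It had 260.1, 249, 236, 236 and 235 CPM in LF, 198, 229.8, 182, 217 and 214 in HF and 217, 227, 216, 219 and 226 in HF-LF mice, with log2 fold changes of -0.23 ± 0.054 (edgeR adjusted p = 0.123) and -0.14 ± 0.054 (adjusted p = 0.187).

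For 10 members there was no overlap between obese and control mice, all lower in the obese mice, among them Rpl21, Rpl22, Rpl3, Rpl32, Rpl4, Rpl6, Rps12, Rps14 and Rps3. That was 10 of 78, where 1.26% of all tested entries were lower with no overlap. In formerly obese against control mice 13 of 78 members were lower with no overlap, against 1.87% of all entries. Among these were Rpl22, Rpl27a, Rpl32, Rpl7, Rpl8, Rplp0, Rplp1, Rps14, Rps21, Rps25 and Rps9. None of the 78 members was higher with no overlap in either comparison.

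The 5 members called in formerly obese against control mice included the stalk proteins Rplp1 and Rplp2, which form the flexible arms that recruit elongation factors. Rplp1 had 550.4, 565, 527, 601 and 614 CPM in control mice and 546, 621, 555, 542 and 599 CPM in obese mice. In formerly obese mice it had 519, 413, 500.1, 456 and 444 CPM. Control and obese mice overlapped, and all 5 formerly obese values lay below both. The log2 fold change was 0.00 ± 0.064 (SE) for obese against control, -0.29 ± 0.064 for formerly obese against control (edgeR adjusted p = 0.0268) and -0.30 ± 0.064 for formerly obese against obese mice (adjusted p = 0.0569). Without HF-LF replicate 2, which had the lowest value, the last 2 were both -0.25 and under the 1.2-fold criterion. They also fell short of it with each library's GC trend removed (both -0.25) and with its length trend removed (-0.23 and -0.25). The slope of log2 counts on GC content averaged -0.0413 per 10 percentage points over formerly obese libraries, against 0.0155 over control and 0.0258 over obese libraries. Rplp2 had 44.7, 50.2, 40.1, 53.3 and 46.5 CPM in LF, 46.4, 44.9, 43.1, 46.7 and 33.3 in HF and 31.2, 29.3, 43.1, 39.1 and 29.2 in HF-LF mice. Its groups overlapped, with a log2 fold change of -0.45 ± 0.12 against control mice (edgeR adjusted p = 0.0545) and -0.31 ± 0.12 against obese mice (adjusted p = 0.235). Rplp0, the base on which the stalk is built, had 1033 ± 47.4 CPM (SD, n = 5) in LF, 932 ± 70.0 in HF and 919 ± 38.2 in HF-LF mice, and its log2 fold change in formerly obese mice was -0.17 ± 0.054 (edgeR adjusted p = 0.117).

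Rps21, a small-subunit protein, gave the smallest p in formerly obese against control mice. It had 117, 128, 115, 127 and 126 CPM in LF, 116, 127, 107, 100.5 and 115 in HF and 103, 103, 90.1, 95.3 and 103 in HF-LF mice. Formerly obese and control values did not overlap, whereas obese values overlapped both. The log2 fold change was -0.31 ± 0.06 against control (edgeR adjusted p = 0.0233) and -0.19 ± 0.06 against obese mice (adjusted p = 0.155). With the GC or the length trend removed the first value was -0.26 or -0.25, under the fold criterion. Rps10, another small-subunit protein, had 38, 38.6, 45.4, 39.7 and 43.4 CPM in formerly obese mice, against 49.95, 60.8, 41.7, 52.3 and 62.5 in control and 46.9, 54.8, 44, 43.2 and 50.7 in obese mice. Its log2 fold change was -0.38 ± 0.097 against control mice (edgeR adjusted p = 0.0497), with 1 control value among the formerly obese ones.

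Rps4l, a sequence relative of Rps4x that RefSeq lists as a non-coding transcript, was low throughout. Its values were 6.29, 8.78, 6.63, 6.96 and 8.04 CPM in LF, 8.62, 8.8, 7.96, 8.11 and 7.27 in HF and 6.76, 4.7, 4.67, 5.86 and 3.96 in HF-LF mice. Every formerly obese value lay below every obese value, and 1 reached into the control range. The log2 fold change was -0.65 ± 0.14 against obese mice (edgeR adjusted p = 0.0541) and -0.50 ± 0.14 against control mice (adjusted p = 0.0662), the lowest value among the members called in that comparison. Rps4x itself, the X-linked small-subunit protein, had 357 ± 42.1 CPM (SD, n = 5) in LF, 312 ± 16.6 in HF and 327 ± 44.3 in HF-LF mice, with adjusted p of 0.443 and 0.505 by edgeR.

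Rps12, a small-subunit protein, was called higher in formerly obese than in obese mice. Obese mice had 19.8, 19.1, 20.7, 19.5 and 19.8 CPM and formerly obese mice 25.6, 21.5, 26, 24.2 and 22.5 CPM, with no overlap. Control mice had 25, 23.6, 20.7, 21.2 and 26.1 CPM, and the lowest of these was about equal to the highest obese value. The log2 fold change was 0.28 ± 0.073 between formerly obese and obese mice (edgeR adjusted p = 0.0925) and -0.24 ± 0.074 between obese and control mice (adjusted p = 0.225). The call was lost with scaling by library totals alone and without HF-LF replicate 1 or 3. Rpl23 had a log2 fold change of -0.40 ± 0.12 in obese mice (edgeR adjusted p = 0.212) and 0.34 ± 0.12 from obese to formerly obese mice (adjusted p = 0.209). The groups overlapped in these comparisons, and Rpl23 was not called in obese mice with the length trend removed or without any one of LF replicates 1, 2 and 3 and HF replicates 1, 3, 4 and 5. Rpl6 had 84.5, 79.1, 84.5, 84.6 and 82 CPM in control mice and 57.9, 78.1, 65.3, 71.6 and 71.3 in obese mice, all lower, with a log2 fold change of -0.27 ± 0.077 (edgeR adjusted p = 0.195).

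**Figure D3:**
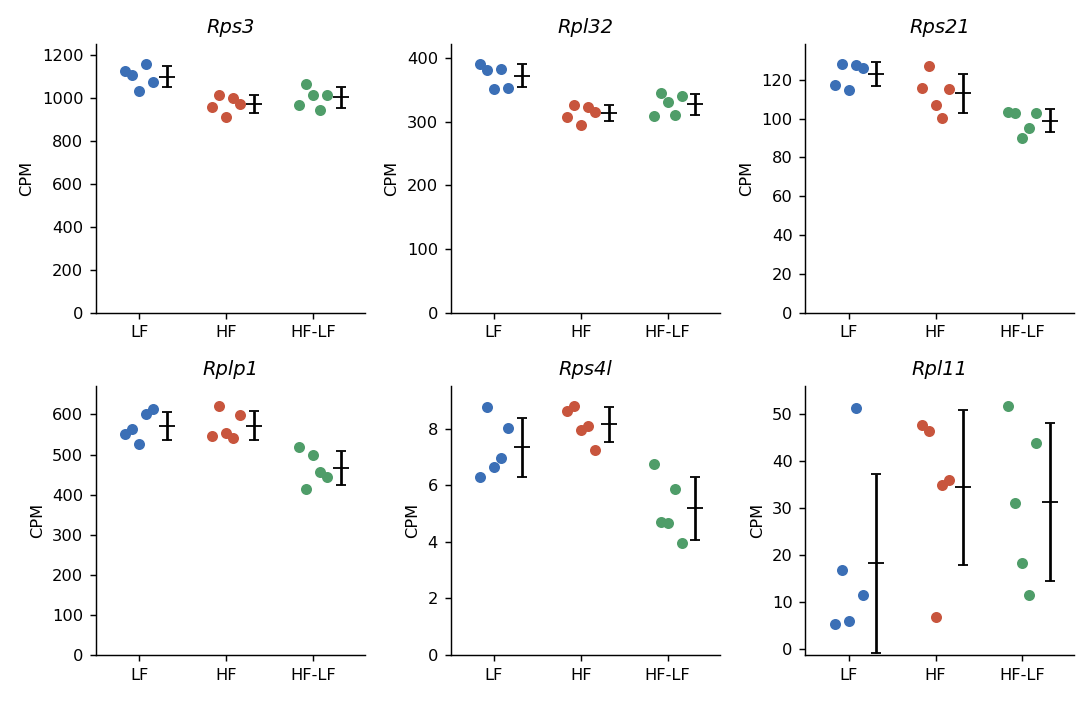
CPM of 6 ribosomal protein genes in each library of control (LF), obese (HF) and formerly obese (HF-LF) mice. Points are mice and black marks are the mean ± SD (n = 5). Rpl32 lies lower in HF and HF-LF, every HF point of Rps3 lies below its LF points, Rps21, Rplp1 and Rps4l lie lowest in HF-LF, and Rpl11 jumps between 5.42 and 51.7 CPM within groups.

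Rpl23a was the single member called higher in obese than in control mice. It had 2.96, 5.68, 5.01, 0.873 and 1.74 CPM in the obese mice against 1.12, 1.24, 1.86, 1.05 and 1.22 in control mice, so that 3 obese libraries carried the log2 fold change of 1.32 ± 0.37 (SE, edgeR adjusted p = 0.179) and 1 lay below every control. It was not called without LF replicate 1, 2 or 5, or without HF replicate 1, 2 or 3. Rpl12 had 10.0 ± 1.77 CPM (SD, n = 5) in control and 13.9 ± 2.59 in obese mice. Rpl12 and Rpl36 had log2 fold changes of 0.46 ± 0.2 and 0.55 ± 0.27 in obese mice (edgeR adjusted p = 0.414 and 0.474). In formerly obese against control mice the 3 smallest p-values on the higher side belonged to Rpl10a (0.20 ± 0.12), Rps13 (0.76 ± 0.54) and Rpl11 (0.77 ± 0.56), with edgeR adjusted p of 0.42, 0.511 and 0.524. The value of Rps13 came from 1 formerly obese library with 14.9 CPM, where the other 4 had 1.47 to 2.07.

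Rpl5, Rpl11, Rps6, Rpsa and Rps27a, which have roles beyond the ribosome, did not pass the criteria. Rpl5 and Rpl11, which bind the p53 regulator Mdm2 when ribosome assembly fails, had log2 fold changes of -0.11 ± 0.084 and 0.91 ± 0.56 in obese mice (edgeR adjusted p = 0.661 and 0.586). Rps6, the substrate by which S6 kinase activity is often read, had -0.20 ± 0.25 in obese and -0.32 ± 0.25 in formerly obese mice (adjusted p = 0.83 and 0.544). Rpsa, also known as the laminin receptor, had -0.09 ± 0.11 and -0.17 ± 0.11 (adjusted p = 0.808 and 0.465). Rps27a, made as a fusion with ubiquitin, was at 5.61 CPM on average, with -0.01 ± 0.21 and 0.01 ± 0.21 (adjusted p = 0.995 and 0.989). These 5 genes also missed the rule without the fold criterion in all 3 comparisons by edgeR.

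Some ribosomal proteins have a paralog, a second related gene, which in some cases can take their place. Rpl22l1, the paralog of Rpl22, had 32.8 ± 1.94 CPM (SD, n = 5) in control and 30.8 ± 3.01 in obese mice, a log2 fold change of -0.09 ± 0.077 beside -0.23 ± 0.054 for Rpl22. For Rps27l, the values were 78 ± 5.6 and 76.4 ± 6.06 CPM, while Rps27 itself was listed at only 0.491 CPM on average. Rpl7l1 had a log2 fold change of 0.01 ± 0.07 in obese and -0.03 ± 0.07 in formerly obese mice, where Rpl7 had -0.24 ± 0.07 and -0.26 ± 0.07 (edgeR adjusted p for Rpl7 = 0.207 and 0.0639). Rpl3 had -0.13 ± 0.045 and -0.13 ± 0.045 (adjusted p = 0.319 and 0.15), and its muscle paralog Rpl3l had at most 3 counts in a library. Rpl39 had -0.46 ± 0.17 (adjusted p = 0.331) and Rpl10 0.07 ± 0.14 (adjusted p = 0.903) in obese mice, and the testis paralogs Rpl39l and Rpl10l had at most 1 and 0 counts in a library. Differences between the members of a pair were not tested.

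Levels differed widely between members, although most of their products are built into the ribosome in equal numbers. Per kilobase of exon, the mean level was 1147 CPM for Rplp1, the highest, and 970.4 for Rpl8, and the 78 tested members had a median of 59.8. At the low end stood Rps27 with 0.854, Rpl23a with 3.66 and Rps13 with 5.76 CPM per kilobase.

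**Figure D4:**
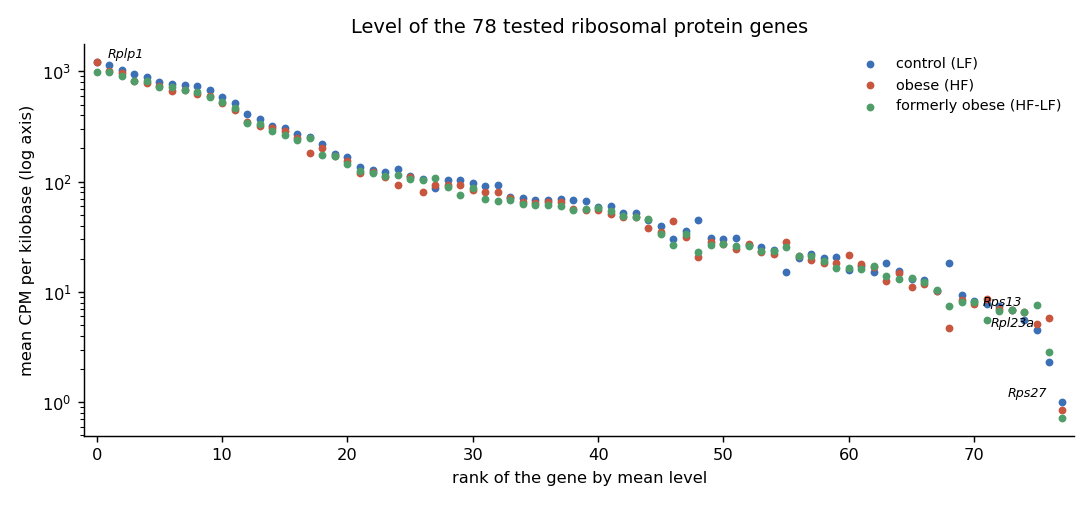
Mean level of each of the 78 tested ribosomal protein genes in CPM per kilobase of exon (log axis), sorted by the mean over all 15 libraries, with 1 point each for control (LF), obese (HF) and formerly obese (HF-LF) mice. Levels run from 1147 for Rplp1 to 0.854 for Rps27, while the 3 points of most genes lie close together.

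Members with more sequence shared with their copies had lower levels. Reads were pairs of 50 bases, so each member's curated RefSeq transcript was cut into all windows of 50 bases and each window was looked up in the mouse genome (GRCm38). A median of 64.25% of a member's windows occurred exactly at another place, and 53 of 84 members had more than 50% of their windows elsewhere. At least 1 copy of the coding sequence (90% identity over 80% of its length) stood elsewhere for 79 members, with a median of 9 copies and up to 80 for Rpl21. Across the 78 tested members the share of windows elsewhere and the level per kilobase had a Spearman correlation of -0.41, given as a description, since members share libraries and short, similar transcripts. Median levels were 110 CPM per kilobase for 13 tested members with up to 30% of windows elsewhere and 28.3 for 30 members with over 80%. How reads with several matches were handled in the counting is not given in the sources used here, and its part in these levels was not tested. A level near 0, as for Rpl26 or Rps27, does not show that the gene was silent.

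As an illustration, 30 bases of the longest coding exon are given beside a close copy elsewhere, on the coding strand in GRCm38, with bases that differ in capitals. The first pair, from the member with the widest scatter, shows no difference, and the second, from the member with the smallest p in obese mice, shows 1. Over the whole transcript the share of windows found exactly elsewhere was similar, 46.9% for Rpl11 and 49% for Rpl32.
Rpl11, exon at chr4:136052688-136052717 (minus strand): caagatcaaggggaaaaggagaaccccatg
Rpl11 copy, chr3:146839312-146839341 (minus strand): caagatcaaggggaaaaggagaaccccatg
Rpl32, exon at chr6:115807138-115807167 (minus strand): cgaaactggcggaaacccagaggcatTgac
Rpl32 copy, chr10:20208586-20208615 (plus strand): cgaaactggcggaaacccagaggcatCgac
The copy of Rpl11 was 99.8% identical to the coding sequence and that of Rpl32 95.8%.

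Scatter between mice of the same group was also described beside the share of windows elsewhere. For each gene the within-group SD of log2 CPM was divided by the SD usual for genes at that level. This ratio had a median of 1.28 for the members and 0.949 for all tested genes, and it was over 2 for 19 of 78 members (24.4%) against 5.62% of all tested genes. It was over 2 for 0 of 13 members with up to 30% of windows elsewhere, 7 of 22 with 30 to 60%, 4 of 13 with 60 to 80% and 8 of 30 with over 80%, so that the share did not rise further above 30%. The median ratios were 0.901, 1.04, 1.42 and 1.73 in the same order, and over the 78 members its Spearman correlation with the share of windows elsewhere was 0.42. Rpl11 had the highest ratio, 8.43. Its values were 5.42, 16.8, 6.01, 51.2 and 11.6 CPM in LF, 47.6, 46.4, 6.78, 34.9 and 35.9 in HF and 51.7, 31, 18.2, 11.4 and 43.8 in HF-LF mice, so that low and high libraries occurred in every group. Rpl37a (6.88), Rps16 (6.04), Rpl27 (4.49) and Rps6 (3.73) followed. Rps16 had 6.29, 23.6, 39.7, 34.7 and 32.5 CPM in control and 30.4, 10.5, 9.14, 7.24 and 6.43 in obese mice, and 1 obese library had a value in the range of the 4 high control libraries. Rpl27 was at 2.25 to 16.5 CPM in 14 libraries and at 45.2 CPM in LF replicate 5.

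**Figure D5:**
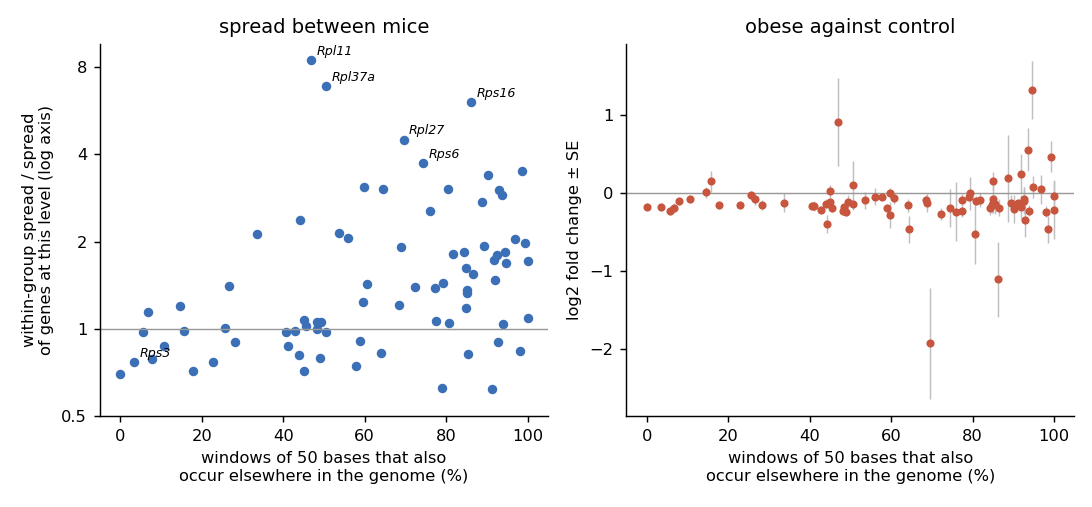
Left, within-group spread of each tested ribosomal protein gene relative to genes at the same level (log axis), against the share of its 50-base windows found elsewhere in the genome (%). Right, log2 fold change ± SE in obese against control mice against the same share. Each point is 1 of 78 genes. Ratios over 2 occur only above 30% of windows elsewhere, with Rpl11 highest at 8.43, while genes below 0 on the right occur along the whole axis.

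Members with few and with many shared windows had medians close to each other. In obese mice the median log2 fold change was -0.15 over the 13 members with up to 30% of windows elsewhere, -0.14 over 22 members with 30 to 60%, -0.16 over 13 with 60 to 80% and -0.12 over 30 with more. For formerly obese mice the medians were -0.14, -0.13, -0.16 and -0.13 in the same order, and all 13 members of the first group lay below 0. Among these 13, 5 were lower in obese and 5 in formerly obese mice without the fold criterion. In obese mice these included Rpl22, Rpl4, Rps24 and Rps3. Rpl4, at 1185 CPM the member with the most counts, had 1264, 1270.2, 1224, 1322 and 1196 CPM in control and 1105, 1182, 1066, 1131 and 1139 CPM in obese mice, with no overlap (log2 fold change -0.16 ± 0.046, edgeR adjusted p = 0.199).

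One annotated copy was itself among the high entries. Rpl14-ps1, a processed pseudogene entry at chr7:45324958-45325651, had 463 ± 21.3 CPM (SD, n = 5) in LF, 417 ± 21.3 in HF and 428 ± 10.7 in HF-LF mice, where Rpl14 itself had 119 ± 4.56, 115 ± 6.55 and 111 ± 4.91. The log2 fold change of Rpl14-ps1 in obese mice was -0.15 (edgeR adjusted p = 0.207) and that of Rpl14 was -0.05 (adjusted p = 0.779). Whether its counts came from the pseudogene or from Rpl14 mRNA was not tested.

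The TOP tract was looked for at the annotated gene starts, as it marks the mRNAs that are regulated together. Of 84 members, 63 were found in the RefSeq table of starts (GRCm38.p6). A start was called TOP-like where its first base was C and at least 4 more C or T followed, read on the gene's strand only. Such a start was held by 13 of 75 annotated member starts (17.3%) and by 2.51% of all starts in the table. Rps21 has 2 annotated starts, of which 1 was TOP-like and the other was not. Among the TOP-like starts were those of Rps21, Rps10, Rplp2 and Rps6, shown from 10 bases before the first base to 20 bases into the transcript, with the tract in capitals. Beside them stand 1 of the 2 annotated starts of Rpl22 and that of Rps3, which had none.
Rps21, chr2:180257369-180257398 (plus strand): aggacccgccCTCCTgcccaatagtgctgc
Rps10, chr17:27635225-27635254 (minus strand): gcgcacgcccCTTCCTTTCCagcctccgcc
Rplp2, chr7:141447641-141447670 (plus strand): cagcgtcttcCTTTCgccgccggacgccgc
Rps6, chr4:86857348-86857377 (minus strand): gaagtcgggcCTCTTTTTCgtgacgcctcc
Rpl22, chr4:152324426-152324455 (plus strand): cttctggaatgttccagctcccactgacag
Rps3, chr7:99483690-99483719 (minus strand): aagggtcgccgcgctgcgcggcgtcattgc
The annotated first base decides this reading, so a start without the letters says nothing of the mRNA's true 5′ end. Rpl32, Rplp1 and Rpl8 were among the 21 members without an entry.

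Other genes with TOP mRNAs also lay mostly below 0. Of 20 translation factors and related genes with TOP mRNAs, 18 were below 0 in obese mice (median -0.09) and 14 in formerly obese mice (median -0.09), and 0 met the full criteria in either comparison by edgeR or DESeq2. At an unadjusted p under 0.05 they numbered 4 and 9 by edgeR, and 6 and 9 by DESeq2. Of all tested entries, 10.9% in obese and 16.7% in formerly obese mice had such a p by edgeR, and 11.1% and 17% by DESeq2. Eef1b2, a subunit of the factor that recharges elongation factor 1A, had 698, 699, 644, 673 and 654 CPM in LF, 566, 641, 556, 601 and 593 in HF and 607, 642, 561, 592 and 619 in HF-LF mice (log2 fold change -0.19 ± 0.049, edgeR adjusted p = 0.142, and -0.16 ± 0.049, adjusted p = 0.105). Eef1a1, elongation factor 1A, and Eif4b, a helper of the cap-binding helicase, passed without the fold criterion in obese mice (-0.19 ± 0.058 and -0.17 ± 0.053, adjusted p = 0.226 and 0.225). Tpt1 had -0.34 ± 0.19 between formerly obese and obese mice (adjusted p = 0.467). Gnb2l1, the ribosome-bound scaffold also called Rack1 and outside the naming rule, had -0.18 ± 0.048 and -0.16 ± 0.048 (adjusted p = 0.148 and 0.0867).

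Genes that build ribosomes, as opposed to being part of them, had medians near 0. Of 51 ribosome biogenesis genes 15 were below 0 in obese mice (median 0.04) and 26 in formerly obese mice (median -0.003), and 0 were called in either comparison. At an unadjusted p under 0.05 there were 0 and 2 by edgeR and likewise 0 and 2 by DESeq2, which called 0 as well, so that both shares lay under those of all entries (10.9% and 16.7% by edgeR). Their smallest p-values belonged to Nop16 in obese mice (-0.14 ± 0.068, edgeR adjusted p = 0.47), Npm1, the nucleolar chaperone, in formerly obese against control (-0.11 ± 0.042, adjusted p = 0.188), and Fbl, the rRNA methyltransferase, in formerly obese against obese mice (-0.23 ± 0.095, adjusted p = 0.285). The 20 genes of RNA polymerase I, which transcribes rRNA, and of its transcription factors had medians of 0.02 and -0.01, with Polr1c at -0.17 ± 0.057 in obese mice (adjusted p = 0.255), Polr2f at -0.13 ± 0.063 in formerly obese against control mice (adjusted p = 0.295) and Polr2e at -0.13 ± 0.059 against obese mice (adjusted p = 0.365). Of these 20, 0 were called by edgeR or DESeq2, and 2 and 1 had an unadjusted p under 0.05 by edgeR (2 and 0 by DESeq2), where 10.9% and 16.7% of all entries did by edgeR. The 34 tested translation factors not listed as TOP mRNAs had medians of -0.01 and -0.03, with Eif3k at -0.18 ± 0.046 (adjusted p = 0.142), Eif1 at -0.16 ± 0.046 (adjusted p = 0.085) and Eif3g at -0.07 ± 0.037 (adjusted p = 0.432) in the 3 comparisons. Again 0 were called by edgeR or DESeq2 against control mice, and 4 and 6 of 34 had an unadjusted p under 0.05 by both tools, beside the same 10.9% and 16.7% by edgeR. By edgeR 4 of these were lower and 0 higher in obese mice, against 5.85% and 5.01% of all entries. In formerly obese mice 5 were lower and 1 higher, against 8.63% and 8.1%. Without the fold criterion 2 and 3 were lower and 0 higher, where 1.45% and 3.42% of all entries were lower.

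The 76 mitochondrial ribosomal protein genes, which serve the separate ribosome of mitochondria, had medians of -0.005 in obese and -0.02 in formerly obese against control mice. By edgeR and by DESeq2 0 were called in either comparison, and 4 and 10 had an unadjusted p under 0.05 by edgeR (4 and 9 by DESeq2). In either direction those were fewer than the 10.9% and 16.7% of all entries by edgeR. At this p by edgeR, 2 were lower and 2 higher in obese mice, against 5.85% and 5.01% of all entries. In formerly obese against control mice 10 of 76 were lower and 0 higher, against 8.63% and 8.1% of all entries. The smallest p-values were those of Mrps6 in obese mice (-0.21 ± 0.074, edgeR adjusted p = 0.305), Mrpl2 in formerly obese against control (-0.17 ± 0.05, adjusted p = 0.0931) and Mrps34 in formerly obese against obese mice (-0.24 ± 0.05, adjusted p = 0.0541), a comparison in which 2 were called lower by edgeR (1 by DESeq2), and 7 were lower and 1 was higher without the fold criterion. In that last comparison 1.42% of all entries were called lower, and 2.7% were lower and 2.2% higher without the fold criterion. At an unadjusted p under 0.05 by edgeR 14 of 76 were lower there and 1 higher, against 7.05% and 6.3% of all entries. The difference between these lists and the cytosolic ribosomal proteins was not tested.

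Among 26 tested genes of mTORC1 and MYC signalling the medians were 0.02 and 0.01, with 0 and 1 called by edgeR and by DESeq2. At an unadjusted p under 0.05 there were 1 and 6 by edgeR and 1 and 7 by DESeq2 (10.9% and 16.7% of all entries by edgeR). Without the fold criterion 0 passed in obese mice, and 2 were higher and 1 was lower in formerly obese mice by edgeR. Of all entries in the latter comparison, 3.54% were higher and 3.42% lower by that rule, and 1.87% were called lower by the full criteria. The called gene was Mycn, a MYC family member, with -0.57 ± 0.17 in formerly obese against control mice (edgeR adjusted p = 0.0902) and -0.68 ± 0.17 against obese mice (adjusted p = 0.0828). The first of these calls was lost without any one of LF replicates 1, 2 and 5 and HF-LF replicate 4. Mtor, Larp1 and Myc had log2 fold changes of -0.02 ± 0.056, 0.05 ± 0.042 and 0.01 ± 0.084 in obese mice, and of 0.01 ± 0.056, 0.02 ± 0.042 and 0.00 ± 0.084 in formerly obese mice (edgeR adjusted p of at least 0.702). Akt1s1, an mTORC1 inhibitor, had 0.15 ± 0.066 in obese mice (adjusted p = 0.421) and was lower in formerly obese than in obese mice (-0.32 ± 0.066, edgeR adjusted p = 0.0541), a call lost with the GC trend removed (-0.23). Mycn and Akt1s1 were the 2 of 26 called lower in that comparison, where 1.42% of all entries were called lower. Mxd1, a MYC antagonist of differentiated cells, had 0.25 ± 0.073 in formerly obese against control mice (adjusted p = 0.0844), under the fold criterion. The 11 tested hosts of small nucleolar RNAs, many of which carry TOP tracts, had medians of 0.06 and -0.03, with Snhg18 at -0.18 ± 0.077 and -0.17 ± 0.077 (adjusted p = 0.402 and 0.268) and Snhg8 lower in formerly obese than in obese mice (-0.29 ± 0.099, adjusted p = 0.193). The call of Snhg8 was lost with no filter, with the replicate block, with the length trend removed, with thinning to the smallest total, and without any one of LF replicate 1, HF replicates 1, 4 and 5 and HF-LF replicates 2, 3 and 5.

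Cell type markers were read beside these genes. The paper states that marker genes of single cell types did not change significantly in obese mice. In obese mice Krt18, a keratin of simple epithelia, had 411, 419, 418, 392 and 417 CPM against 486, 495, 501, 513 and 458 in control mice, with no overlap, and passed without the fold criterion (-0.25 ± 0.058, edgeR adjusted p = 0.105). Of the 10 colon epithelium markers it alone did so there, and 0 were called. Their median was -0.007, with 5 of 10 below 0. In formerly obese against control mice 1 of the 10 was called, Krt20 of differentiated surface cells (0.55 ± 0.16, edgeR adjusted p = 0.0806), a call lost without LF replicate 1. Vil1, of the brush border, passed there without the fold criterion (0.20 ± 0.053, edgeR adjusted p = 0.0618). The median of the 10 markers was -0.008 in that comparison, with 6 below 0. The 6 colonocyte markers (such as Slc26a3, the chloride exchanger of surface colonocytes) summed to 4627 to 9917 CPM in LF, 5295 to 9334 in HF and 7386 to 12401 CPM in HF-LF libraries. Of these, 4 of 6 were called higher in formerly obese against control mice, led by Ceacam20 (0.34 ± 0.069, edgeR adjusted p = 0.0245). Against obese mice 3 of 6 were called higher, led by Slc26a3 (0.62 ± 0.12, edgeR adjusted p = 0.0433). Of all entries, 1.85% and 1.23% were called higher in these comparisons. In both, 0 of the 6 lay below 0, with a lowest value of 0.24. In obese against control mice their median was 0.01, with Slc26a3 at -0.22 ± 0.12 (adjusted p = 0.515). The 14 proliferation markers summed to 588 to 916 CPM in LF, 617 to 897 in HF and 607 to 1108 in HF-LF libraries, and the 5 stem cell markers to 119 to 164, 133 to 159 and 127 to 144 CPM. Immune markers summed to 23.9 to 41.0, 32.4 to 61.9 and 27.1 to 52.9 CPM, and fibroblast markers to 2.28 to 10.5, 6.42 to 17.3 and 5.89 to 30.1 CPM in the same order, and 0 genes of these 4 lists were called in the 3 comparisons by edgeR or DESeq2. At an unadjusted p under 0.05 edgeR found 2 of 4 tested fibroblast markers in formerly obese against control mice, both higher, and DESeq2 also found 2. Of all entries, 16.7% by edgeR and 17% by DESeq2 had such a p there. For immune markers edgeR found 1 in formerly obese against obese mice, where DESeq2 found 3 (all entries, 13.4% and 13.5%). In obese against control mice DESeq2 found 2 immune markers (all entries, 11.1%) and edgeR 0. Of 3 tuft cell markers 2 were called higher in formerly obese against control mice, with Trpm5 at 0.41 ± 0.12 (edgeR adjusted p = 0.0902). There 1.85% of all entries were called higher, and 0 of the 3 lay below 0. The enteroendocrine hormone gene Pyy was called lower in formerly obese than in obese mice (-0.35 ± 0.11, edgeR adjusted p = 0.163), as were 1.42% of all entries. Trpm5 was not called without any one of LF replicates 2, 4 and 5 and HF-LF replicate 2. Pyy was not called with the GC or length trend removed, with thinning to the smallest total, or without any one of HF replicates 1, 2 and 3 and HF-LF replicates 1, 2 and 4. Of 7 goblet cell markers 0 were called, and 0 had an unadjusted p under 0.05, by edgeR or DESeq2, with Muc2 at 0.20 ± 0.17 (adjusted p = 0.591) in formerly obese against control mice. Dcn of fibroblasts had 1.21 ± 0.46 (adjusted p = 0.177) and Ptprc of immune cells 0.50 ± 0.25 (adjusted p = 0.335) in the same comparison. Proliferation markers had medians of -0.04 in obese and 0.13 in formerly obese against control mice, with 10 and 0 of 14 below 0. Against obese mice their median in formerly obese mice was 0.20, with 1 below 0. In the first 2 comparisons the 4 tested stem cell markers had medians of 0.04 and -0.10, with 1 and 4 below 0. The 7 tested immune markers had 0.33 and 0.45, with 0 and 1 below 0. The 4 tested fibroblast markers had 0.66 and 1.09, with 0 below 0 in both. The part of cell type in the ribosomal protein result was not tested. Ribosomal protein mRNAs are short, and the slope of log2 counts on transcript length ranged from -0.0571 to 0.0215 per doubling over control, -0.0233 to 0.0194 over obese and 0.0037 to 0.0201 over formerly obese libraries. With each library's length trend removed the medians were -0.12 and -0.11, and 15 and 11 members passed without the fold criterion.

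DNA methylation near the members was read from the list of 8199 regions that the authors called different between obese and control mice, which gives a position and a direction only. Regions lay inside 5 of 84 members (5.95%), where 11.2% of all entries held one, without adjustment for gene length. Rpl15 held a region of lower methylation in an exon (chr14:18269042-18269064), as did Rpl21 (chr5:146834189-146834201) and Rps26 (chr10:128625253-128625260). Rpl3 held one of higher methylation in an exon (chr15:80080461-80080472) and Rpl29 one in an intron (chr9:106430727-106430736). Their log2 fold changes in obese mice were -0.16, -0.15, -0.07, -0.13 and -0.09, and none of the 5 met the full criteria by edgeR, with adjusted p from 0.319 to 0.793. With 5000 bp on either side, 9 members had a region (10.7%), against 15.2% of all entries.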

How the data were processed

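RNA-seq libraries of 15 mice were used (3 groups of 5, grouped by sample label). The authors mapped paired 50-base reads of stranded poly(A) libraries to mm10 with TopHat2 2.0.4 and deposited raw counts per gene from HTSeq. The annotation release, the strand setting and the handling of reads with several matches are not given in the sources used here, so that overlapping, antisense and copied genes are uncertain. The deposited tables of the authors' own fold changes and p-values (obese and formerly obese, each against control mice) and the amplicon methylation table were not used, and of the deposited list of differentially methylated regions only start, end and the hyper or hypo mark were read, since it has no value per mouse.

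All entries that passed filterByExpr were fitted in one model with group as the only term (edgeR 4.0.16, quasi-likelihood test, TMM, R 4.3.3), and p-values were adjusted by Benjamini-Hochberg over 12961 entries. A gene was called at a fold change over 1.2, p under 0.01 and adjusted p under 0.25, the study's cutoffs. Log2 CPM used a prior count of 2, and SE is from the fit. The fit was tested on simulated data. Ribosomal protein transcripts were matched to GRCm38 with blastn 2.17.0, counting exact matches of 50-base windows, and all 84 members had a RefSeq model. Alternatives were DESeq2 1.42.0, other scalings, filters, GC and length trends, thinning and leaving out each library. The naming rule for members reads symbols only, but this gene family and the lists were picked with earlier results of these data known. Named were the 3 members with the smallest p in each direction per comparison, a fixed set (stalk, paralog pairs, Rpsa, Rps6, Rpl5, Rpl11, Rps27a), the 3 of highest level, and the gene of smallest p in each other list (for cell type markers, those with a call or a leading value only); members and listed genes called, or described for scatter, copies or methylation, were added after their values were seen. Some genes that this rule names are not reported here. Each library held at least 15230391 counts, and p-values measure the spread between 5 mice per group.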

Additional observations from a re-analysis of the deposited data

Results flagged for a closer look

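In 90 groups of 5 libraries (29 named and tested members and their summed level in each of 3 groups) the highest or lowest library was compared with the rest, and 10 stood apart by Dixon's criterion, where chance alone would pick out about 1 group in 20. Among control mice these were Rpl10a in LF replicate 5 (20.1 CPM, others 14.6 to 15.5), Rpl11 in LF replicate 4 (51.2 CPM, others 5.42 to 16.8), Rpl23a in LF replicate 3 (1.86 CPM, others 1.05 to 1.24) and Rps27a in LF replicate 5 (9.58 CPM, others 3.97 to 5.29). Among obese mice they were Rpl3 in HF replicate 3 (60.8 CPM, others 65.6 to 67.1), Rplp2 in HF replicate 5 (33.3 CPM, others 43.1 to 46.7), Rps13 in HF replicate 1 (5.09 CPM, others 2.18 to 3.01) and Rps6 in HF replicate 4 (14.8 CPM, others 26.5 to 30.1). Among formerly obese mice they were Rpl36 in HF-LF replicate 1 (20.2 CPM, others 8.11 to 8.59) and Rps13 in HF-LF replicate 4 (14.9 CPM, others 1.47 to 2.07). The summed level of the members had no library that stood apart in this way.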

How the results depend on the processing

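The median log2 fold change of the members and their summed level kept their values within 1 SD between replicates under every scaling, filter, trend and replicate setting run, and leaving out single libraries kept the medians from -0.17 to -0.12 (obese), -0.18 to -0.11 (formerly obese, against control) and -0.03 to 0.01 (formerly obese against obese). Counts of called members were less steady. For obese against control mice, 3 members became 1 with the length trend removed, 1 at adjusted p under 0.05 with no fold criterion, and 0 to 6 without single libraries (0 without LF replicate 1, LF replicate 2 or HF replicate 3, 1 without HF replicate 5, 6 without LF replicate 3 or LF replicate 4). For formerly obese against control mice, 5 became 3 with the length trend removed and 4 to 8 without single libraries (8 without HF-LF replicate 3). For formerly obese against obese mice, 3 became 5 with no filter, 5 with the replicate block, 6 with DESeq2, 0 at adjusted p under 0.05 and 2 to 6 without single libraries (6 without HF replicate 5, 5 without HF-LF replicate 4). Added after seeing the data, the rule without a fold criterion gave 17, 19 and 4 members. Only members with up to 30% of windows elsewhere gave 0, 1 and 1, and only members with a spread under 1.5 times the trend gave 1 and 3 in the first 2 comparisons; these hold 13 and 47 tested genes. For named genes, 3999 of the alternative values kept their direction and side of the criteria, 69 newly met them and 73 no longer met them, and no called value turned its sign.

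Correlations of same-numbered libraries ran from -0.23 to 0.33, and in 5 of 15 pairs over the 3 comparisons the same-numbered library was the best match. Replicate 2 was the best match in each comparison (0.20, 0.22 and 0.16). With 5 candidates per library, this check cannot settle whether replicate numbers paired the mice. With the replicate block, 3, 6 and 5 members were called and the medians were -0.13, -0.14 and -0.01. At these totals 6 members had too few counts to be tested, and changes near the median of -0.13 lie under the 1.2-fold criterion.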
